A study of Rattus norvegicus with 9 samples.

Results

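The genes described here were those with their lowest messenger RNA level in the left ventricle of untreated spontaneously hypertensive rats. They were 223 of 19294 genes with values, selected on the measured levels themselves: the mean over 9 samples had to be at least 1 FPKM, sequenced fragments scaled to gene length and to the library's total. The highest value of untreated SHR had to lie below the lowest value of each other group, and the SHR mean had to be at most 0.8 times both other means. Genes with symbols beginning RT1-, Ifi, Oas, Mx or Irf, and Usp18, Rnf213 and Rgs16, were left out, which removed 25 genes that met the values, 11 of them RT1- genes. Of the 223 members, 198 carried a gene name and 25 were unnamed loci. Ccdc142 and LOC103692170 had the same value in every sample and stand for a single measurement.

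RNA sequencing had been done on 3 samples in each of 3 groups. WKY are Wistar Kyoto rats, the normotensive strain usually set beside the hypertensive one, from which it also differs in many inherited variants. SHR are spontaneously hypertensive rats, an inbred strain with high blood pressure and a thickened left ventricle, here untreated. The third group was SHR given oxymatrine, an alkaloid of Sophora roots, called treated SHR below. Neither dose nor duration nor age is given in the sources used here, nor whether untreated rats had received a vehicle. Whether each replicate was a separate animal is not stated in the labels, so a p-value here measures only the spread among these samples, which may be technical.

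Interferons are secreted signals of antiviral defence. Their receptors switch on transcription factors that bind a response element in the promoters of interferon-stimulated genes, and the products of those genes sense viral RNA, tag or trap viral proteins and load peptides for display to T cells. Such genes are expressed at a low tonic level in the heart without infection. Cell cycle genes are read in the few dividing cells of the adult ventricle, most of which are not cardiomyocytes. In whole tissue, fewer cells of a type and less RNA per cell cannot be told apart.

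By Myl2, Myl7 and Sln the sample set was ventricular. Myl2, the ventricular myosin light chain, had 6942 to 8401 FPKM over the 9 samples, while the atrial genes Myl7 and Sln had 0.71 to 9.33 and 0 to 19.99, highest in WKY replicates 1 and 2. The whole set of 8 atrial markers was abundant and peaked in SHR. It summed to 1335 to 2693 FPKM in WKY, 1011 to 4495 in SHR and 1012 to 1960 in treated SHR. None of the 7 tested atrial markers was a member. The 20 most abundant genes took 16.8% to 17.1% of all FPKM in WKY libraries, 18.1% to 18.3% in those of SHR and 16.8% to 17.9% after treatment. Median-of-ratios scaling factors, which compare the bulk of the genes between libraries, were 1.04 to 1.05 in WKY, 0.963 to 0.979 in SHR and 0.977 to 1.03 in treated SHR. A scaling by these factors thus raised the SHR libraries against those of WKY and against treated replicates 1 and 2. The scaling moved the median SHR minus WKY difference of all tested genes from -0.084 to 0.003 on the log2 scale.

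The promoters of interferon-response members are shown first, because these genes are the largest listed group and many share a short run of letters. Promoters of 300 bases, from 250 before to 50 after the gene start, were taken from RefSeq (build GRCr8) and were found for 176 of the 223 members. The letters GAAANNGAA, the core of the interferon response element, were searched on both strands, and are in capitals where they occur, as their reverse complement where the match is on the other strand. Gbp4 had the smallest SHR ratio of the interferon list by the rule's measure and Ddx60 the smallest against WKY, Lgals9 is the most abundant named member with a match, and Eif2ak2 is an interferon-induced gene with a smaller difference.
Gbp4, chr2:233978236-233978535, plus strand: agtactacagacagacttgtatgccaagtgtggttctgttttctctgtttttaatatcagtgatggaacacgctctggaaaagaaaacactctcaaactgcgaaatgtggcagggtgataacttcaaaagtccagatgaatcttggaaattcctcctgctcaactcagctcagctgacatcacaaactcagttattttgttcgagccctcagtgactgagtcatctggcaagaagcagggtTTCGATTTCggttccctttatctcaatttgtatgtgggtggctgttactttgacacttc
Ddx60, chr16:33208790-33209089, minus strand: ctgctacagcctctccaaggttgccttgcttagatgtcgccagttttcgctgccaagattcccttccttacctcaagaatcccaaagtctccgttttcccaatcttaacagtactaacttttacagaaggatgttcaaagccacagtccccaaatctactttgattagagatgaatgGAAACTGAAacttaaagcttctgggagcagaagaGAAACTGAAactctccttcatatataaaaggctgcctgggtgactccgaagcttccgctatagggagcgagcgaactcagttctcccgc
Lgals9, chr10:64428021-64428320, minus strand: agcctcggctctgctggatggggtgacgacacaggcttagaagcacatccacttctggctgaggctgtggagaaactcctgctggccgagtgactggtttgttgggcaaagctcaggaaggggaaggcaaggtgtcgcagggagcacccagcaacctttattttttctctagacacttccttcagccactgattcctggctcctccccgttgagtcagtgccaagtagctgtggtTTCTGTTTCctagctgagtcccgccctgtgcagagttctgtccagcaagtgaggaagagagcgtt
Eif2ak2, chr6:21940904-21941203, plus strand: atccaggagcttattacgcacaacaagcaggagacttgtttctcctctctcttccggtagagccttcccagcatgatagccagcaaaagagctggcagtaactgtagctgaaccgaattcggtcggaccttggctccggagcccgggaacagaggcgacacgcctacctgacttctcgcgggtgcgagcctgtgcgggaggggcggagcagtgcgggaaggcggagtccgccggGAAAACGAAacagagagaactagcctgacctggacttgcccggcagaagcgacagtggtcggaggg

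The match began 9 bases before the gene start in Gbp4, 73 and 39 before in Ddx60, 15 before in Lgals9 and 16 before in Eif2ak2. Of the 20 interferon-list members with a promoter, 12 held the letters (60%), as did 36 of 68 tested genes of that list as a whole (52.9%). Among the 156 other members 13 held them (8.33%), against 730 of 9857 tested genes (7.41%). The members outside the list thus held the letters about as often as tested genes in general. The other motifs searched on both strands were the E-box CACGTG, the D-box TTATGTAA, the cyclic AMP response element TGACGTCA, the CCAAT box and the glucocorticoid receptor core ACANNNTGT, none of which contains GAAANNGAA or lies within it. The CCAAT box was in 41.5% of the members' promoters and 37.8% of all tested ones, the E-box in 6.82% and 9.59%, the D-box in 1.14% and 0.487%, the cyclic AMP element in 2.27% and 3.12% and the glucocorticoid core in 2.84% and 3.84%. A match is a run of letters and does not show that a factor binds there.

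The selected genes made up 1.80% of the 12378 genes that could have been selected. Both comparisons behind the rule share the 3 SHR libraries, so a gene that happens to be low in those libraries is low in both, and the same rule was therefore run for each group and direction. Lowest in SHR were 223 genes and highest in SHR 53. Lowest in treated SHR were 52 and highest 86, while WKY, which stood apart from both SHR groups, was lowest in 663 genes and highest in 1183. The surplus of genes lowest over genes highest in SHR depended on scaling: with median-of-ratios scaling the counts were 132 and 96, and with quantile normalization 95 and 108, where the order turned. Of the 223 members, 131 were kept with the first scaling, 93 with the second and 87 with both. Leaving out a library eases the separation that the rule asks for, and every such count lay above 223, from 226 to 399. The count was 379 without SHR replicate 1, 399 without SHR replicate 3 and 354 without treated replicate 3. Without SHR replicate 2 it was 281, and 175 of the 223 stayed.

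**Figure D1:**
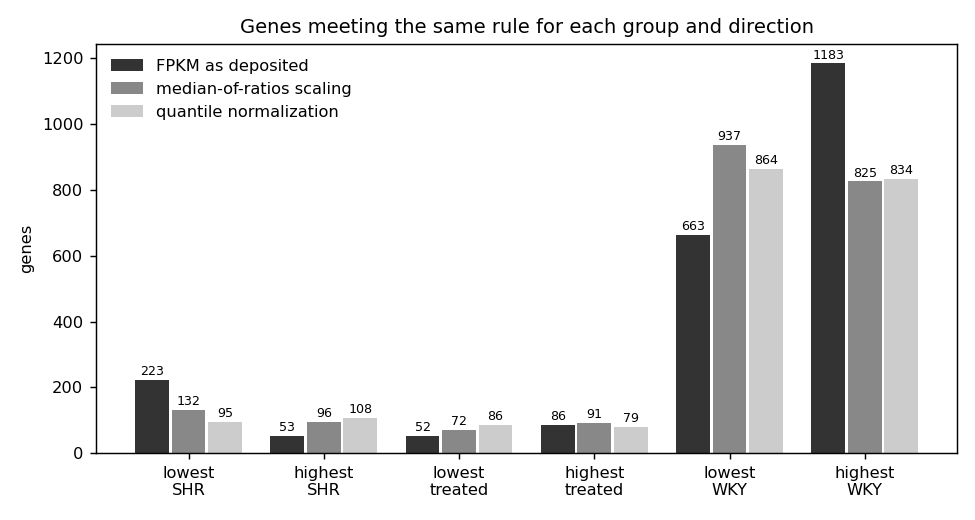
Number of genes (vertical axis) meeting the same rule for each of 6 shapes (horizontal axis), from FPKM as deposited and after 2 other scalings. As deposited, 223 genes were lowest and 53 highest in SHR; after quantile normalization the counts were 95 and 108.

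By the rule's own measures, given as a description, the median member had an SHR mean of 0.596 times that of WKY and 0.736 times that of treated SHR. The WKY mean was the higher of the other 2 in 196 members, the treated mean in 25, and both were equal in 2. In the median member the treated mean covered 59.3% of the distance from the SHR to the WKY mean, with quartiles of 43.2% and 79.6%. In 59 members the SHR mean was at most 0.5 times that of WKY, in 8 at most 0.5 times that of treated SHR, and in 7 both. Members were mostly scarce transcripts: their median level was 3.49 FPKM against 10.3 over all tested genes, and 62.8% lay under 5 FPKM against 29.2%. Members also varied more between replicates, with a median coefficient of variation of 11.1% in SHR against 7.32% over all tested genes.

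Beside the limits of the rule, only genes with a name are given. Those just inside the ratio limit were Metrn at 0.799, Gstt1 at 0.7995 and Myh9l1 at 0.7997. Those just outside were Zfp367 and Kit at 0.8002 and Parp12 at 0.8004. Just above the mean of 1 FPKM stood Tmppe, Rspo4 and Rnf157 with 1.04 to 1.05, and just below it Cenpm, Prima1 and Chek2 with 0.984 to 0.992. SHR replicate 2 held the lowest value in 123 members, replicate 1 in 59 and replicate 3 in 41. These counts are a description, given without the share over all tested genes. As a percentage of each gene's mean over 9 samples, the median member stood at 73.6, 70.2 and 75.6 in the SHR replicates, at 122 to 126 in those of WKY and at 100 to 102 in the treated ones.

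**Figure D2:**
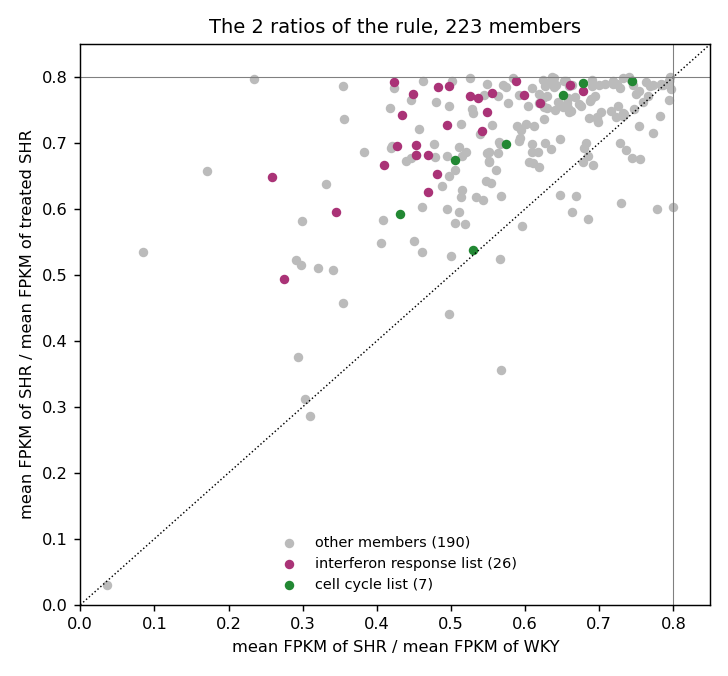
Each point is 1 of 223 members, with the ratio of its SHR mean to the WKY mean on the horizontal axis and to the treated mean on the vertical axis; the grey lines mark the limit of 0.8 and the dotted line equal ratios. Interferon-list members lie above the dotted line, further below WKY than below treated SHR.

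The members with the smallest SHR ratios are given first, whatever their function. Sostdc1, a secreted antagonist of BMP and Wnt signals, had 2.28, 3.02 and 1.42 FPKM in WKY, 0.71, 0.73 and 0.64 in SHR and 2.67, 2.19 and 2.42 in treated SHR. Its treated and WKY values overlapped. Cyp2e1, a cytochrome P450 that oxidises ethanol and other small molecules, had 10.7, 12.32 and 6.3 FPKM in WKY, 2.47, 2.98 and 3.17 in SHR and 7.33, 9 and 6.64 in treated SHR. Ddn, which encodes dendrin, a protein of neuronal dendrites and kidney podocytes, had 10.82, 11.78 and 6.43 FPKM in WKY, 2.85, 3.45 and 3.99 in SHR and 6.67, 6.68 and 9.18 in treated SHR. In both genes WKY replicate 3 was the lowest of its group and lay below all 3 treated samples. Cd7, a surface protein of T and natural killer cells, had 1.78, 2.34 and 2.02 FPKM in WKY, 0.83, 0.53 and 0.5 in SHR and 1.8, 3.03 and 1.13 in treated SHR.

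Pddc1, a gene of the DJ-1 domain family, headed the order by ratio because it was listed at 0 in SHR replicates 1 and 3 and at 0.39 FPKM in replicate 2. It was also uneven elsewhere, with 1, 7.96 and 1.89 FPKM in WKY and 3.78, 1.19 and 8.05 in treated SHR. Egr1, an immediate early transcription factor that responds within minutes to stimulation, had 20.61, 10.31 and 9.4 FPKM in WKY, 5.7, 6.11 and 8.22 in SHR and 10.74, 25.95 and 8.81 in treated SHR. A single sample was far above the rest in each of the 2 other groups. Egr1 was the 1 member among 32 tested immediate early genes (3.12%, where the rule took 1.80% of all genes). Hes2, a basic helix-loop-helix repressor, had 4.16 to 5.74 FPKM in WKY, 1.93 to 2.79 in SHR and 4.08 to 4.78 in treated SHR. Flrt3, a membrane protein of cell adhesion, had 1.16 to 1.55, 0.53 to 0.75 and 1.05 to 1.29 FPKM in the same order, and Dnajc22, a DnaJ co-chaperone, 2.65 to 3.84, 1.01 to 1.32 and 2.15 to 2.23.

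**Figure D3:**
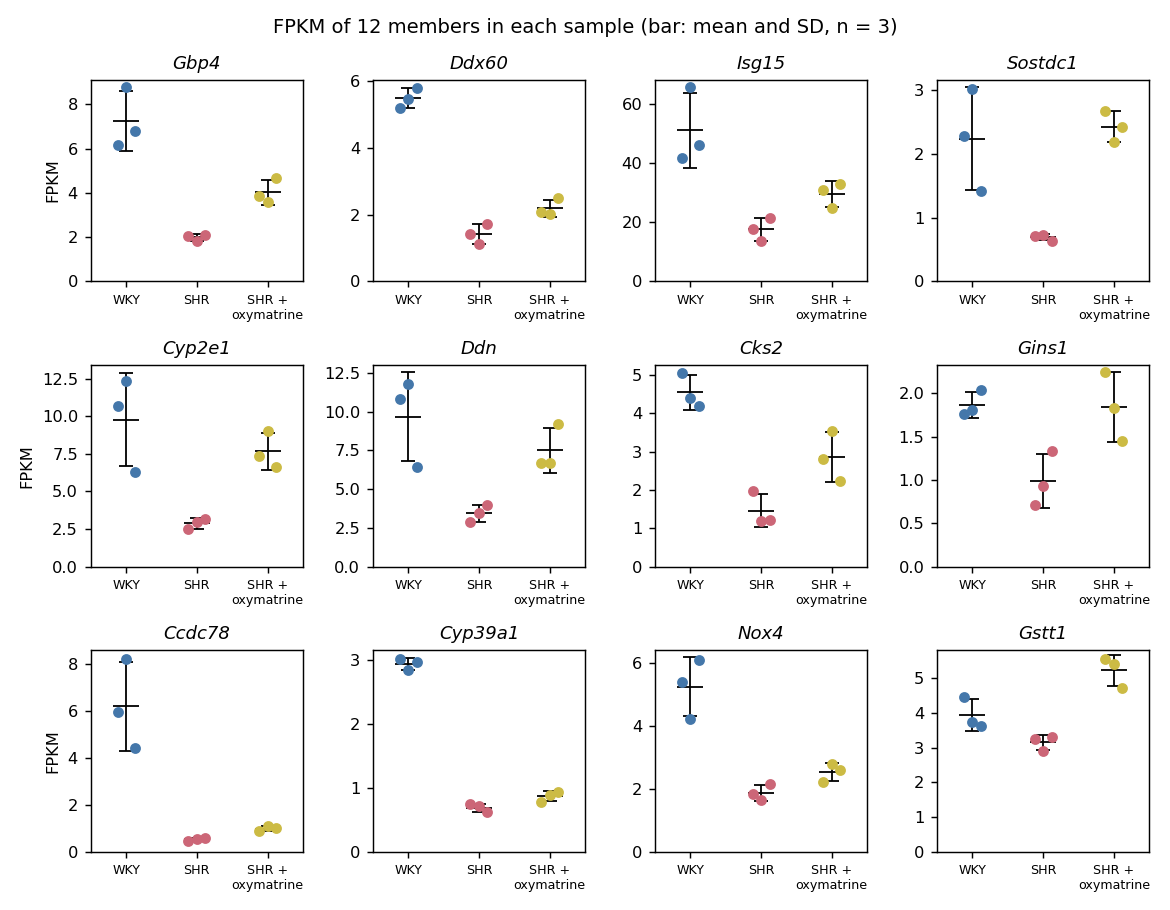
FPKM (vertical axes, from 0) of 12 members in each sample, by group, with the mean and SD of 3 samples. Sostdc1, Cyp2e1, Ddn and Gins1 overlap between treated SHR and WKY, while Ddx60, Ccdc78, Cyp39a1 and Nox4 in treated SHR lie far below WKY and Gstt1 lies above it.

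The rule did not set treated SHR against WKY, and this contrast was tested in limma with adjustment over 12451 genes. The rule did set the values of both groups against SHR, so the members were selected on values that enter the test. The shares of members called, here and below, are thus a description beside those of all tested genes. Of the 223 members 69 were lower in treated SHR than in WKY (30.9%), where 14.6% of all tested genes were. Only Gstt1 was higher, where 10.2% of all tested genes were, and 153 members passed in neither direction. Without WKY replicate 1 the count of lower members was 45, and Gstt1 lost its call without WKY replicate 2 or 3 or treated replicate 1 or 2. The median difference over the members was -0.19 on the log2(FPKM + 1) scale, against -0.043 over all tested genes. All 3 treated values lay below all 3 WKY values in 98 members (background 25.7%) and above them in 4 (background 17.0%), and the groups overlapped in 121. Of the members, 74 also met the rule for genes highest in WKY, so that their treated level lay apart from both other groups, and 3 met it for genes highest in treated SHR. The rule asks for SHR values below all others, and the spread within SHR enters the pooled spread of this test too. A difference that was not called does not show that treated SHR and WKY were alike.

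For the 2 contrasts that the rule used, limma called 199 members lower in SHR than in WKY (background 23.1%) and 2 members, Gprc5b and Gstt1, higher in treated than in untreated SHR (background 0.153%), and nothing is read from either count. The authors' deposited table gave a q-value under 0.05 to 126 members as lower in SHR than in WKY (background 7.03%), and to 21 members as higher in treated than in untreated SHR (background 0.414%, 76 genes). These are again the contrasts that the rule used, and the counts are a description. Those 21 include Gbp4, Cyp2e1, Ddn, Sostdc1, Rbm3, Bcl6b, Nes, Kcnd3 and Gprc5b.

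Genes of the interferon response were the largest listed group, although the best known families had been left out by symbol. Of 82 tested genes of a list of other interferon-stimulated genes 26 were members (31.7%, where the rule took 1.80% of all genes), and 24 of these 26 were lower in treated SHR than in WKY (limma, adjusted p under 0.05, background 14.6%). More of the list, 47 of the 82 genes, met the rule for genes highest in WKY, and so did 22 of the 26 members. Of the whole list 58 genes were lower and 1 higher, with a median difference of -0.35, and over the 26 members the median was -0.51. In the median interferon member the treated mean covered 36.5% of the distance from SHR to WKY, against 63.1% in the 190 members outside this list and the cell cycle list; that difference was not tested. With the other scalings 20 and 21 of the 26 stayed called. Among the 56 genes of the list that were not members, the SHR mean was below the WKY mean in 53 and the treated mean above the SHR mean in 49.

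RNA sensors and their regulators were among them. Ddx60, a helicase that promotes RIG-I signalling, had 5.21, 5.48 and 5.81 FPKM in WKY, 1.41, 1.13 and 1.73 in SHR and 2.07, 2.03 and 2.49 in treated SHR. All 3 treated values lay below those of WKY, by a log2 difference of -1.03 (SE 0.11, limma adjusted p = 0.000272). Dhx58, which encodes the RIG-I-like receptor LGP2, had 7.29 to 8.49, 3.17 to 4.13 and 4.94 to 5.7 FPKM in WKY, SHR and treated SHR. Eif2ak2, the RNA-activated kinase PKR that halts translation, was 1 of the 2 interferon members not called between treated SHR and WKY, with 20.2 to 23.09 and 23.98 to 26.26 FPKM (log2 difference -0.19, limma adjusted p = 0.0881). The other was Epsti1, at 1.49 to 1.77 and 1.59 to 2.57 FPKM.

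The ubiquitin-like modifier Isg15, which is joined to viral and host proteins, had 41.81, 65.79 and 46.31 FPKM in WKY, 17.9, 13.74 and 21.4 in SHR and 31.17, 24.75 and 33.19 in treated SHR. Every treated value lay below WKY, and above SHR as the rule asked. The log2 difference from WKY was -0.75 (SE 0.19, limma adjusted p = 0.0201, and 0.0147 to 0.0632 over the alternatives). The call was lost without WKY replicate 2 or treated replicate 2, with adjusted p = 0.0515 and 0.0632. Uba7, the enzyme that activates Isg15, had 15.93 to 18.66, 7.3 to 9.09 and 10.13 to 13.72 FPKM in WKY, SHR and treated SHR, and Herc6, its ligase in the mouse, 23.08 to 27.7, 9.7 to 12.25 and 14.51 to 17.16.

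Guanylate-binding and immunity-related GTPases act on the membranes around intracellular pathogens. Gbp4 had 6.19, 8.77 and 6.8 FPKM in WKY, 2.04, 1.82 and 2.12 in SHR and 3.86, 3.59 and 4.67 in treated SHR, with a log2 difference of -0.71 (SE 0.12, limma adjusted p = 0.00372) between treated SHR and WKY. Igtp had 26.96 to 34.81, 14.75 to 15.92 and 18.43 to 21.31 FPKM in WKY, SHR and treated SHR, and Irgm 17.63 to 20.21, 9.31 to 10.55 and 11.66 to 14.1. Irgm2, a member outside the list that was named after its values were seen, had 30.74 to 38.66, 15.54 to 19.75 and 24.38 to 26.03. Igtp and Irgm2 are neighbours on chromosome 10, and Gbp4 neighbours the unnamed member LOC685067 on chromosome 2. These genes belong to families of similar sequence between which estimated reads can be split, so the level of a single copy is uncertain.

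The ADP-ribosyltransferase Parp9, its partner ubiquitin ligase Dtx3l and Parp14, which lie in a row on chromosome 11, were all members. Parp9 had 32.6, 38.71 and 34.74 FPKM in WKY, 16.23, 14.51 and 16.8 in SHR and 20.42, 19.66 and 21.3 in treated SHR, a log2 difference of -0.76 (SE 0.08, limma adjusted p = 0.000206) between treated SHR and WKY. Dtx3l had a difference of -0.45 and Parp14 of -0.42 in the same test. Their treated values also lay wholly below WKY. Stat2, a transcription factor of interferon signalling, had 20.31 to 24.91 FPKM in WKY, 12.93 to 14.02 in SHR and 16.29 to 17.74 in treated SHR, and its neighbour on chromosome 7, the replication fork gene Timeless, was a member too.

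Genes of peptide display were represented by Tap1 and Nlrc5. Tap1, a subunit of the transporter that brings peptides to class I molecules, had 20.3, 23.25 and 26.12 FPKM in WKY, 11.32, 8.62 and 10.3 in SHR and 13.1, 13.35 and 14.3 in treated SHR, a log2 difference of -0.73 (SE 0.11, limma adjusted p = 0.00153) from WKY. Nlrc5, the transcriptional activator of class I genes, had 2.82 to 3.37, 1.31 to 1.65 and 1.83 to 2.02 FPKM. Cxcl9, a chemokine that draws activated T cells, had 13.4 to 17.89, 6.46 to 8.37 and 10.5 to 12.9 FPKM, and Phf11, a PHD finger protein, 21.42 to 29.15, 11.18 to 11.83 and 17.08 to 21.06. Treated SHR was lower than WKY in both (limma adjusted p = 0.0352 and 0.0303), but each call was lost in 7 of 17 alternatives, with adjusted p up to 0.121 and 0.0955. Rtp4, a chaperone of membrane receptors, kept its call in all 17, at 30.26 to 33.13, 11.62 to 15.97 and 17.87 to 23.4 FPKM.

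The 2 most abundant members with a name were Ly6e, a membrane-anchored interferon-induced protein, and Rbm3, a cold-induced RNA-binding protein. Ly6e had 131.5, 136.9 and 131.7 FPKM in WKY, 89.99, 80.67 and 93.75 in SHR and 106.2, 106.5 and 123.2 in treated SHR, and its call against WKY (log2 difference -0.25, limma adjusted p = 0.0308) was lost in 7 of 17 alternatives, both scalings among them, with adjusted p from 0.0129 to 0.102 over all of them. Lgals9, the immune lectin galectin-9, had 80.53 to 89.94, 39.74 to 48.89 and 56.06 to 61.9 FPKM (log2 difference -0.51, limma adjusted p = 0.00209). Slfn4, a schlafen protein of myeloid cells in the mouse, had 48.2 to 61.55, 20.95 to 24.19 and 25.96 to 30.45 FPKM (log2 difference -0.88, limma adjusted p = 0.000345). In both, the treated level was nearer to SHR than to WKY.

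**Figure D4:**
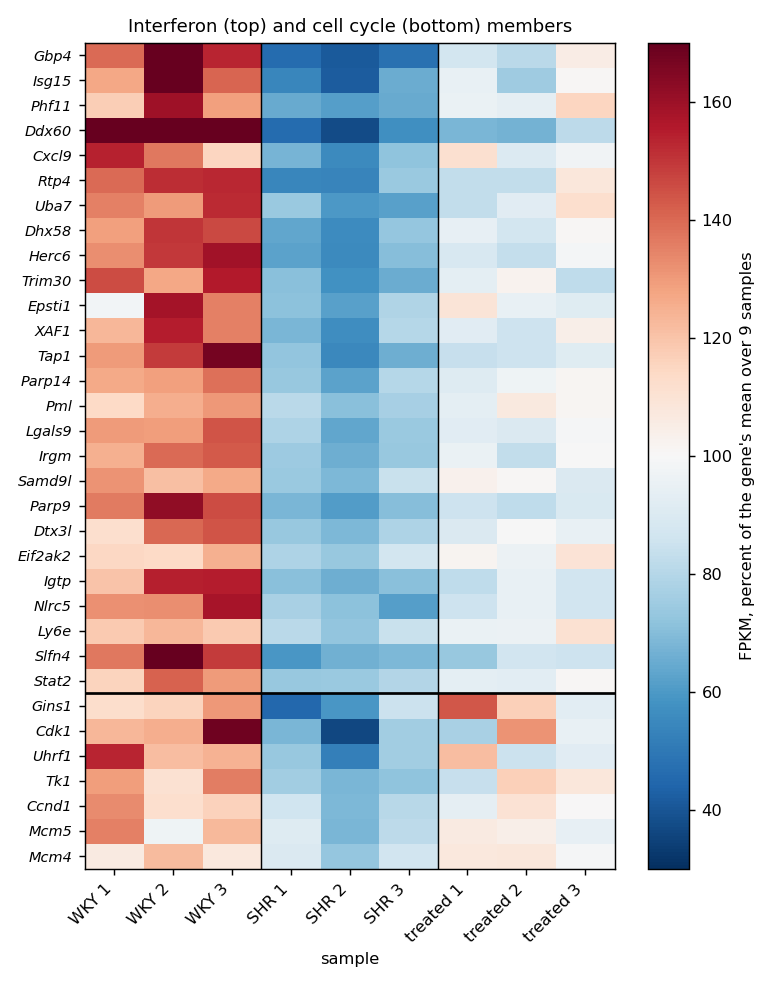
FPKM of the 26 interferon-list members (top) and 7 cell cycle members (bottom), as a percentage of each gene's mean over 9 samples, in each sample (columns). The interferon members have medians of 129 to 145 in WKY, 61.7 to 72.5 in SHR and 91.3 to 99.6 in treated SHR, with SHR replicate 2 lowest.

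The count of interferon members depended on SHR replicate 2. By the median interferon member the SHR replicates stood at 71.1%, 61.7% and 72.5% of the gene mean, WKY at 129% to 145% and treated SHR at 91.3% to 99.6%. Without SHR replicate 2 the list had 17 members, without replicate 1 it had 31 and without replicate 3 it had 36. With median-of-ratios scaling it had 18 and with quantile normalization 16, and 15 of the 26 were members under both scalings. Eif2ak2, Igtp, Nlrc5, Parp9, Dtx3l, Slfn4 and Stat2 were members under neither. Macrophage markers, 13 of 15 tested and none a member, summed to 295 to 359 FPKM in WKY, 374 to 443 in SHR and 273 to 570 in treated SHR. Endothelial markers, 19 of 20 tested and none a member, summed to 2542 to 2894, 2193 to 2356 and 2214 to 2331 FPKM. In both sums SHR overlapped treated SHR, but single markers differed. Pecam1 had 140.7 to 165.1 FPKM in WKY, 105.6 to 118.9 in SHR and 119.4 to 123.1 in treated SHR, without overlap. Cdh5 had 115.1 to 141.5, 83.43 to 94.51 and 89.72 to 94.44, where SHR and treated SHR overlapped. The part of cell composition in the result was not tested.

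Among 60 tested genes of the cell cycle and DNA replication 7 were members: Gins1, Cdk1, Uhrf1, Tk1, Ccnd1, Mcm5 and Mcm4 (11.7% of the list, where the rule took 1.80% of all genes). The rule for genes highest in WKY was met by 23 of the 60, none of them a member. None of the 7 was called between treated SHR and WKY in limma (1 at an unadjusted p under 0.05), where 16 of the 60 were lower and 2 higher. The median member had a difference of -0.22 and the median gene of the list -0.24. Gins1, a subunit of the replicative helicase complex, had 1.76, 1.81 and 2.04 FPKM in WKY, 0.71, 0.93 and 1.33 in SHR and 2.25, 1.83 and 1.45 in treated SHR. Its treated and WKY values overlapped fully.

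Cdk1, the kinase that drives entry into mitosis, had 4.08, 4.16 and 5.57 FPKM in WKY, 2.26, 1.2 and 2.5 in SHR and 2.57, 4.35 and 3.14 in treated SHR. The gap between the highest SHR and the lowest treated value was small, and Cdk1 was a member under neither other scaling. Ccnd1, the cyclin D1 of the passage from G1 to S, was the most abundant of the list's members, at 49.62, 41.61 and 43.14 FPKM in WKY, 32.07, 25.42 and 30.01 in SHR and 34.92, 41 and 37.25 in treated SHR. Tk1, the thymidine kinase of S phase, had 3.06 to 3.76, 1.88 to 2.09 and 2.32 to 3.23 FPKM, and Uhrf1, which carries DNA methylation through replication, 1.7 to 2.14, 0.73 to 1.06 and 1.19 to 1.7. The helicase subunits Mcm5 and Mcm4 had 2.3 to 3.2 and 4.52 to 5.2 FPKM in WKY, 1.61 to 2.16 and 3.11 to 3.83 in SHR, and 2.23 to 2.52 and 4.23 to 4.6 in treated SHR. Both were members under neither other scaling.

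Outside the list but close to it in function, Cks2, a subunit of cyclin-dependent kinases, had 5.06, 4.39 and 4.19 FPKM in WKY, 1.96, 1.2 and 1.22 in SHR and 2.81, 3.54 and 2.23 in treated SHR. It was lower in treated SHR than in WKY (log2 difference -0.53, limma adjusted p = 0.0316), but not in 6 of 16 alternatives, where the adjusted p reached 0.107. Pbk, a mitotic kinase, had 1.34 to 2.03, 0.28 to 0.81 and 0.87 to 1.02 FPKM (limma adjusted p = 0.0503, and 0.031 to 0.158 over the alternatives). The number of cell cycle members turned on SHR replicate 1: without it the list had 22 members, without replicate 2 it had 5 and without replicate 3 it had 8. With the other scalings 4 genes of the list met the rule, and 2 of the 7 did so under both. Over the whole list the median gene stood at 90.4%, 71.4% and 84.8% of its mean in the SHR replicates, at 116% to 123% in those of WKY and at 91.1% to 103% in the treated ones. The proliferation marker Mki67, not a member, had 1.04, 0.33 and 0.91 FPKM in SHR, with replicate 2 again lowest, and 0.9 to 1.21 in treated SHR, so SHR and treated SHR overlapped.

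Growth and stress signalling genes gave 4 members of 74 tested, Map2k6, Pdgfb, Fgfr3 and Pdgfa (5.41%, where the rule took 1.80% of all genes). Map2k6, the kinase that activates p38, had 9.01, 9.93 and 8.16 FPKM in WKY, 3.82, 5.09 and 4.03 in SHR and 7.11, 5.64 and 5.76 in treated SHR, and was lower in treated SHR than in WKY (log2 difference -0.49, SE 0.12, limma adjusted p = 0.0147). The platelet-derived growth factor genes Pdgfb and Pdgfa had 29.6 to 32.62 and 12.7 to 16.33 FPKM in WKY, 19.97 to 27.88 and 9.9 to 11.79 in SHR, and 29.32 to 33.14 and 13.39 to 13.79 in treated SHR. Both overlapped between treated SHR and WKY. The growth factor receptor Fgfr3 had 6.57 to 9.01, 4.26 to 6.02 and 6.29 to 6.55 FPKM. Fgfr3 and Pdgfa were members under neither other scaling. With median-of-ratios scaling 1 of the list's genes met the rule and with quantile normalization 2.

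Several members named for their treated SHR against WKY difference encode enzymes of oxidation and detoxification, grouped here after their values were seen. Gstt1, which joins glutathione to small electrophiles, was the 1 member among 35 tested antioxidant genes (2.86%, where the rule took 1.80% of all genes). Its values were 4.46, 3.74 and 3.62 FPKM in WKY, 3.25, 2.89 and 3.31 in SHR and 5.55, 5.42 and 4.72 in treated SHR. Treated SHR was above WKY in all 3 samples (log2 difference 0.34, SE 0.09, limma adjusted p = 0.0272), but not in 4 of 16 alternatives, where the adjusted p reached 0.0922. It stood at the edge of the rule and was a member under neither other scaling. Cyp39a1, an oxysterol hydroxylase, had 2.84 to 3.02, 0.62 to 0.74 and 0.78 to 0.93 FPKM in WKY, SHR and treated SHR, a log2 difference of -1.08 (SE 0.09, limma adjusted p = 7.97e-05) from WKY. Cyp4f17, a fatty acid hydroxylase family member, had 12.12 to 14.76, 5.01 to 6.12 and 6.7 to 7.38 FPKM (log2 difference -0.80, limma adjusted p = 0.000386). Nox4, a NADPH oxidase that makes hydrogen peroxide, had 5.41, 4.23 and 6.09 FPKM in WKY, 1.82, 1.64 and 2.14 in SHR and 2.21, 2.8 and 2.59 in treated SHR (log2 difference -0.81, SE 0.13, limma adjusted p = 0.00198). In these last 3 genes the treated mean was nearer to SHR than to WKY. Cyp39a1 and Cyp4f17 were members under neither other scaling, and Nox4 under median-of-ratios scaling but not under quantile normalization.

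**Figure D5:**
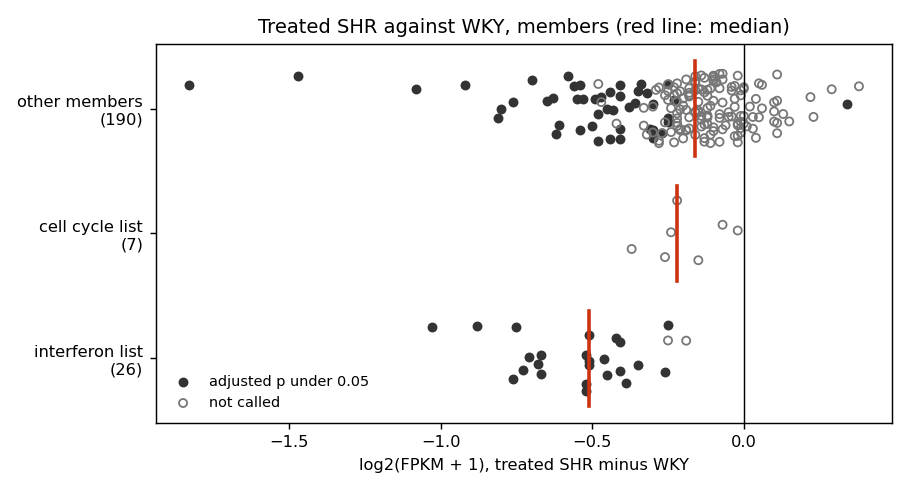
Difference between treated SHR and WKY on the log2(FPKM + 1) scale (horizontal axis) for each member, in 3 sets; filled points passed an adjusted p of 0.05 in limma and red lines are medians. The medians are -0.51 for the interferon list, -0.22 for the cell cycle list and -0.16 for the 190 others, of which 45 were lower and 1, Gstt1, higher.

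The largest difference of all named members in this contrast was in Ccdc78, a coiled-coil protein of centriole assembly. It had 5.93, 8.2 and 4.43 FPKM in WKY, 0.44, 0.54 and 0.59 in SHR and 0.87, 1.08 and 0.99 in treated SHR, a log2 difference of -1.83 (SE 0.17, limma adjusted p = 0.000124). Treated SHR thus stood at 15.8% of the WKY mean. Its values lay apart from those of SHR because the rule asked for that of every member. Bcl6b, a transcriptional repressor of the BCL6 family, had 42.49 to 53.26, 21.31 to 23.04 and 27.08 to 28.74 FPKM (log2 difference -0.76, limma adjusted p = 0.000217). Nrep, a small protein linked to nerve regeneration and wound repair, had 78.48 to 88.42, 34.81 to 46.27 and 51.6 to 55.76 FPKM (log2 difference -0.65, limma adjusted p = 0.00214). Bcl6b and Nrep were members under neither other scaling.

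Rbm3 and Slc25a34, also abundant, had treated values that overlapped those of WKY. Rbm3 had 89.81, 97.95 and 83.31 FPKM in WKY, 68.01, 62.53 and 75.28 in SHR and 90.7, 91.84 and 87.36 in treated SHR, and the treated mean was 99.6% of the WKY mean. The SE of that comparison was 0.08 on the log2 scale. Rbm3 was a member with quantile normalization but not with median-of-ratios scaling. Slc25a34, a mitochondrial carrier, had 59.9 to 64.02, 40.97 to 47.9 and 51.98 to 60.89 FPKM, and met the rule under neither other scaling. The genes with treated values wholly above WKY, besides Gstt1, were Ramp3, Nr1i3 and Mthfd1l, named here after their values were seen. Nr1i3 is a nuclear receptor of xenobiotic sensing and Mthfd1l an enzyme of mitochondrial folate metabolism. Neither was called between treated SHR and WKY (limma adjusted p = 0.4139 and 0.1415), and both were members under neither other scaling. Ramp3, a partner of the calcitonin-like receptor for adrenomedullin, had 1.14, 1.02 and 1.1 FPKM in WKY, 0.65, 0.39 and 0.81 in SHR and 2.15, 1.71 and 1.33 in treated SHR (limma adjusted p = 0.0791).

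Markers of 3 minor cell types held members, counts of 1 or 2 where the rule took 1.80% of all genes, and nothing is read from them. S100b, a calcium-binding protein of Schwann cells and glia, had 3.38, 2.52 and 1.4 FPKM in WKY, 0.63, 0.58 and 0.96 in SHR and 1.52, 1.55 and 1.14 in treated SHR. The 9 Schwann cell markers, 1 of them a member, summed to 61.5 to 85.2 FPKM in WKY, 60.6 to 75.0 in SHR and 80.5 to 92.6 in treated SHR. Nkg7 and Prf1 serve the cytotoxic granules of T and natural killer cells. Nkg7 had 2.19 to 3, 1.03 to 1.76 and 2.04 to 2.97 FPKM in WKY, SHR and treated SHR, and Prf1 0.99 to 1.53, 0.52 to 0.89 and 0.94 to 1.4. Lymphocyte markers, 6 of 14 tested and 2 members, summed to 29.6 to 39.0 FPKM in WKY, 39.0 to 49.7 in SHR and 36.0 to 55.6 in treated SHR, with Cd79a and Ms4a1 listed at 0 in some sample. Flt4, the VEGF-C receptor of lymphatic vessels, had 4.54 to 7.1, 3.51 to 4.37 and 4.65 to 5.25 FPKM, where the 6 lymphatic endothelial markers, among them Flt4, summed to 82.8 to 310, 60.7 to 124 and 176 to 220. The part of these cells in the members' levels was not tested.

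Lists of heart muscle physiology held 1 member each, shares of 2.27%, 4.55% and 2.7% of their tested genes where the rule took 1.80% of all genes, and nothing is read from them. Of 44 tested contractile, calcium and ion channel genes the 1 member was Kcnd3, the Kv4.3 channel of the transient outward potassium current, with 7.06, 6.19 and 5.19 FPKM in WKY, 3, 4.03 and 3.3 in SHR and 5.24, 5.23 and 5.2 in treated SHR. Of 22 hypertrophy-induced genes it was Nes, which encodes the intermediate filament nestin, with 10.95 to 14.43, 5.46 to 7.6 and 9.44 to 10.43 FPKM. Of 37 genes of adrenergic, endothelin, renin-angiotensin and nitric oxide signalling it was Adra1d, an alpha-1 adrenergic receptor, with 3.2 to 3.84, 1.56 to 2.36 and 2.8 to 2.84 FPKM. Neither Kcnd3, Nes nor Adra1d was called between treated SHR and WKY (limma adjusted p = 0.238, 0.126 and 0.13). Gprc5b, an orphan receptor named after its values were seen, had 11.63, 10.68 and 10.39 FPKM in WKY, 5.04, 5.9 and 5.25 in SHR and 8.69, 8.86 and 9.44 in treated SHR, and its neighbour on chromosome 1, Iqck, was also a member. Treated SHR was below WKY in Gprc5b (log2 difference -0.25, SE 0.07, limma adjusted p = 0.0322).

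Other lists held 1 member each: Wee1 of 26 tested circadian clock genes, Lcn2 of 21 glucocorticoid-responsive genes and Acvr2b of 42 TGF-beta and BMP genes. The others were Pfkfb3 of 43 glycolysis genes, Icam1 of 47 inflammation genes and Flt4, described above, of 59 angiogenesis genes. These shares were 1.69% to 4.76%, where the rule took 1.80% of all genes. No member came from the lists of extracellular matrix (74 tested), cytosolic ribosomal proteins (74), the respiratory chain (72), chromatin regulators (69), the cytoskeleton (65), fatty acid oxidation (44), the ubiquitin system (40), heat shock proteins (39), lipid synthesis (39), Wnt signalling (33), endoplasmic reticulum folding (32) or complement (31). At a share of 1.80% a list of such size may well hold no member, and nothing is read from these counts. Wee1, the kinase that restrains Cdk1, had 11.32 to 12.01, 6.84 to 7.2 and 8.16 to 9.99 FPKM and was lower in treated SHR than in WKY (log2 difference -0.35, limma adjusted p = 0.00775). Lcn2, the iron-siderophore carrier lipocalin-2, had 17.54 to 21.18, 12.05 to 15.18 and 15.88 to 21.81 FPKM, and Pfkfb3, which raises the main activator of glycolysis, 12.4 to 15.18, 8.28 to 11.06 and 12.61 to 15.22. Icam1, the adhesion molecule for leukocytes, had 6.49 to 8.05, 4.91 to 6.03 and 6.21 to 7.52 FPKM. Lcn2, Pfkfb3 and Icam1 overlapped between treated SHR and WKY. Wee1, Icam1 and Flt4 were members under neither other scaling. In all 51 members belonged to a list and 172 to none.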

How the data were processed

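RNA of the left ventricle had been extracted with Trizol and sequenced on the BGISEQ-500 platform after a KAPA library kit, per the labels' protocols. Tools named in the submitters' processing notes are RSEM 1.3.1, Bowtie2 and DESeq2 1.4.5, and the build is Rnor_6.0. The deposited table holds FPKM for every gene and sample, per the file headers. It also holds a log2 ratio and a q-value of the authors for 2 comparisons, and their q-value is printed only where it is named as theirs.

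Of 22864 gene rows 3570 had no values, and 27 symbols turned into dates were restored through the Gene ID. The table gives no read counts. Low values were divided by the lowest value of their gene, and 35.7% of 770 ratios came within 0.1 of a whole number (20% under even spacing). Whole reads were thus not recovered and depth is unknown, so errors are those between replicates. RSEM can share reads out among similar genes.

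The members were found by the rule from the deposited FPKM. The 12451 genes with a mean of at least 1 FPKM were tested on log2(FPKM + 1), which understates changes of low genes, with limma 3.58.1 in R 4.3.3: 1 fit over 3 groups, 6 residual degrees of freedom, variance trend, two-sided, Benjamini-Hochberg adjustment, threshold 0.05. The method was tested on simulated data. Named genes were the 15 with the smallest SHR ratio, the 8 with the highest mean, up to 8 called in each direction between treated SHR and WKY, up to 6 of each list with at least 3 members, and those beside the limits of the rule; others, including the single members of lists, were chosen after their values were seen. The members, gene lists and tests were chosen with earlier results of these data known.

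Alternatives were other limits of the rule, a pseudocount of 0.1, other filters, median-of-ratios scaling, quantile normalization, a fit of 2 groups, a fit with no variance trend, a replicate block and leaving out each sample in turn. The replicate number is shared between groups in the labels, which do not say what it stands for. Promoters and gene neighbours are from RefSeq (GRCr8); coordinates in the authors' build were not used. Python 3.11.15, pandas 2.3.3 and matplotlib 3.10.9 were used.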

Additional observations from a re-analysis of the deposited data

How the results depend on the processing

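The number of members, 223, was 336 with no minimum on the mean, 83 with a mean of at least 5, 85 and 694 with a ratio limit of 0.7 and 0.9, 957 with no ratio limit, 494 with overlap allowed, 132 with median-of-ratios scaling and 95 with quantile normalization; without 1 sample it was 226 to 399 (379 and 399 without SHR replicates 1 and 3, 354 without treated replicate 3), and 119 members were kept in all 9. Without SHR replicate 2, 175 members were kept.

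In the same order of limits, genes highest in SHR (53) were 101, 22, 27, 138, 258, 158, 96 and 108, and 56 to 125 without 1 sample. Genes lowest in treated SHR (52) were 89, 33, 26, 114, 161, 186, 72 and 86, and 51 to 153; genes highest in treated SHR (86) were 165, 36, 45, 230, 358, 300, 91 and 79, and 93 to 297. For the ratio limits of 0.7, 0.9 and none, genes lowest in WKY (663) were 315, 1245 and 1444, and genes highest in WKY (1183) were 473, 2352 and 2624, with 704 at a mean of at least 5.

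Members of the cell cycle list (7) were 4 with each scaling and 5 to 22 without 1 SHR sample; of the growth list (4) 1 and 2, and 3 to 5; of the interferon list (26) 18 and 16, and 17 to 36. The quantile and single-sample list counts were added after seeing the data.

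Members lower in treated SHR than in WKY (69) were 43 at a mean of at least 5, where fewer members are tested, and 45 to 68 without 1 sample, lowest without WKY replicate 1. Members higher (1) were 0 at a mean of at least 5 and 0 to 2 without 1 sample. The median difference, -0.19, was -0.25 with a pseudocount of 0.1, -0.26 at a mean of at least 5, -0.15 with each scaling and -0.21 to -0.18 without 1 sample. Deviations of same-numbered samples had correlations of -0.109 to 0.028, and those of differently numbered samples -0.076 to 0.072. Correlations over all tested genes cannot exclude a pairing that touches only some genes. With the replicate block 59 members were lower and 1 higher. Of 677 results for 41 named genes 630 had the same outcome as the main fit, called or not called. A call was lost in 38, gained in 9 and reversed in 0. Many of the 630 belong to genes never called, so they do not measure how stable the calls are. Where a count moved, the cause was not tested. Depth is unknown, and 62.8% of the members lay under 5 FPKM.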
